A study of Mus musculus with 12 samples.

Results

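The genes described here are 10 genes through which cells sense and export cholesterol: Apoe, Abca1, Abcg1, Nr1h2, Nr1h3, Mylip, Lpcat3, Npc1, Npc2 and Soat1. They were taken as a fixed list of mouse symbols and found through their Ensembl identifiers among the 54838 genes counted. All 10 were present, and all 10 passed the filter on low counts that kept 31109 genes. RNA was sequenced from spinal cord of mice at postnatal day 60 in 12 libraries, with 3 libraries in each of 4 groups. The control mice were Olig1+/+;Tet1fl/fl and the Tet1 mutants were Olig1cre/+;Tet1fl/fl, so that both carried the floxed Tet1 allele and the mutants in addition carried cre under Olig1, which acts in the oligodendrocyte lineage from development onwards. Tissue was taken at 4 days after injection of lysolecithin (4dpl), a lysophosphatidylcholine (LPC) that dissolves myelin at the injection site, or unlesioned, by the study's description from the contralateral side. Cell suspensions were enriched for oligodendroglia on a Percoll gradient and were not sorted by a marker.

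Myelin is rich in cholesterol, and the debris of a demyelinated lesion loads the cells that engulf it with sterol. Sterol that arrives in the lysosome leaves it through NPC2 and NPC1. It can then be esterified for storage by SOAT1, or leave the cell through the transporters ABCA1 and ABCG1, which pass it to lipoprotein particles built in the central nervous system mainly on apolipoprotein E. Oxysterols formed from excess cholesterol activate the liver X receptors LXR alpha (Nr1h3) and LXR beta (Nr1h2), which act with a retinoid X receptor. Abca1, Abcg1, Apoe, Mylip and Lpcat3 are among the genes that LXRs are known to activate.

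Before the values, the promoters of 3 of the genes are shown: Abca1 and Apoe, which changed most after lesion, and Nr1h3, whose level differed most between the genotypes. They are the 250 bases before an annotated start site in RefSeq (GRCm38.p6), 5′ to 3′ on the strand of the gene. They lie at chr4:53159896-53160145, chr7:19699189-19699438 and chr2:91195117-91195366, all on the minus strand. RefSeq has other start sites for Apoe and Nr1h3, and their windows are not shown. The Nr1h3 window shown lies within the gene as counted, which spans 91184061 to 91202834.
Abca1: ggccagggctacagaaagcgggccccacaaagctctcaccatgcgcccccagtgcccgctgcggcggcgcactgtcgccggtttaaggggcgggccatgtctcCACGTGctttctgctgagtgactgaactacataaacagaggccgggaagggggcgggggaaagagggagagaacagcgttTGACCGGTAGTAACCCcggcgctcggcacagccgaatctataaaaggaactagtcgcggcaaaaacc
Apoe: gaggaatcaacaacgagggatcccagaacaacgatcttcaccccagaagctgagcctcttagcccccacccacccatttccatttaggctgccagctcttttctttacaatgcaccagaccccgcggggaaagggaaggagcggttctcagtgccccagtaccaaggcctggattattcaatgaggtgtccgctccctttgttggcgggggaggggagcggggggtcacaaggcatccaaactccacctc
Nr1h3: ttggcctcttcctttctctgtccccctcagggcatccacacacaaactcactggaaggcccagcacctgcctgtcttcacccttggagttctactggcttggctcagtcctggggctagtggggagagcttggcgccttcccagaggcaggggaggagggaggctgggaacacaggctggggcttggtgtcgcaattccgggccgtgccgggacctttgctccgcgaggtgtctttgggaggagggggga
Capitals mark the stretches that match a searched motif. The LXR element DR4 is the half-site AGGTCA followed, after a gap of 4 bases, by AGGTCA again on the same strand. It was searched on both strands in the 11 windows of 300 bases, 250 before and 50 after a start site, that RefSeq has for 8 of the genes. Neither an exact match nor one with at most 2 mismatches was present in them, against 0.0152% and 3.02% of 32817 windows of all genes. With 3 mismatches allowed, a limit added after that result, the Abca1 window alone held a match, on the minus strand of the window with its first base at -67 from the start site, as did 21.9% of all windows. The Abca1 window also held CACGTG, the E-box bound by several basic helix-loop-helix factors, with its first base at -147, and no other window of these genes did (7.15% of all windows). The sterol regulatory element TCACNCCAC was in none of the 11 (1.24% of all windows). These letters describe the windows and do not show binding.

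The 12 libraries held 34805086 to 67251544 counts. Levels are given as CPM, counts per 1000000 of a library's size as TMM estimates it. Tet1, counted over the whole gene, did not separate the genotypes: it was at 14.9 to 18.3 CPM in control unlesioned, 9.94 to 16.4 CPM in mutant unlesioned, 11.7 to 12.5 CPM in control 4dpl and 10.9 to 21.5 CPM in mutant 4dpl libraries. The genotype is therefore taken from the labels, and "mutant" means the libraries labelled mutant throughout. None of the markers of any cell type fixed for this comparison was at 0 in a library. Summed over 8 genes, oligodendrocyte markers were at 14551 to 28112 CPM unlesioned and 23393 to 68816 CPM at 4dpl, the highest in mutant 4dpl replicate 3, and 2 of the 8 were called higher after lesion pooled over genotypes. The sum over 9 pan-myeloid markers was at 6399 to 8921 CPM in control unlesioned and 13797 to 19350 CPM in control 4dpl libraries, and at 6044 to 10419.5 and 12419 to 16189 CPM in the mutant groups. Of these 9 markers, 6 were called higher in the same comparison. The share of all genes called higher there was 14.2%, to be set beside each count of markers in this paragraph. Homeostatic microglia markers went from 940.3 to 1836 CPM in control unlesioned to 2241 to 3985 CPM in control 4dpl libraries (3 of 5 called higher), oligodendrocyte progenitor markers from 49.3 to 70.9 to 134 to 292 CPM (3 of 4 called higher) and astrocyte markers from 136 to 157 to 202 to 362 CPM (1 of 5 called higher). In mutants these 3 sums overlapped between conditions. Monocyte and macrophage markers were at 9137 to 17367 CPM in control unlesioned and 15657 to 23642 CPM in control 4dpl libraries. In mutants they were at 6388 to 17978 and 10645 to 25003 CPM, and 2 of the 5 were called higher pooled over genotypes. Fibroblast markers were at 13.1 to 25.9 and 55.0 to 115 CPM in control. In mutants they were at 23.7 to 47.7 and 29.2 to 45.7 CPM, and pooled 2 of the 4 were called higher and 1 lower. Blood cell RNA was abundant too. Neutrophil markers were at 32733 to 70500.1 CPM in control unlesioned and 18583 to 21857 CPM in control 4dpl libraries, without overlap, and at 18460 to 75175 and 13701 to 69276 CPM in the mutant groups. Erythroid markers averaged 66508 and 25842 CPM in control unlesioned and 4dpl libraries and 25960 and 32248 CPM in the mutant ones, and none of the neutrophil or erythroid markers was called. The part of these shifts in the results below was not tested, except for the pan-myeloid markers as a scale. In such mixed preparations, fewer cells of a type and less RNA per cell cannot be told apart, for the 10 genes as for the markers.

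Between genes, levels are compared only as CPM per kb of exon. On the scale per length Apoe stood far above the others, at 1714 ± 1222 CPM per kb (SD, n = 3) in control unlesioned and 9412 ± 1112 CPM per kb in control 4dpl libraries. Npc2 was next, at 60.9 ± 9.41 and 120.1 ± 15.1 CPM per kb. Nr1h3 was the lowest of the 10 in all 4 groups, at 2.18 ± 1.22 CPM per kb in control unlesioned and 0.771 ± 0.211 CPM per kb in mutant unlesioned libraries. In control unlesioned tissue the 7 genes between them ran from Nr1h2 (23.5 CPM per kb) through Abcg1, Lpcat3, Mylip, Npc1 and Soat1 to Abca1 (6.99 CPM per kb), and each overlapped its neighbour in that order over the libraries. At control 4dpl Abca1 had moved up to the fifth place with 34.5 ± 1.71 CPM per kb, overlapping with Abcg1 above it and Lpcat3 below it. Apoe alone took 0.162% to 0.865% of all counts in the control unlesioned and 1.49% to 1.90% in the control 4dpl libraries.

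**Figure D1:**
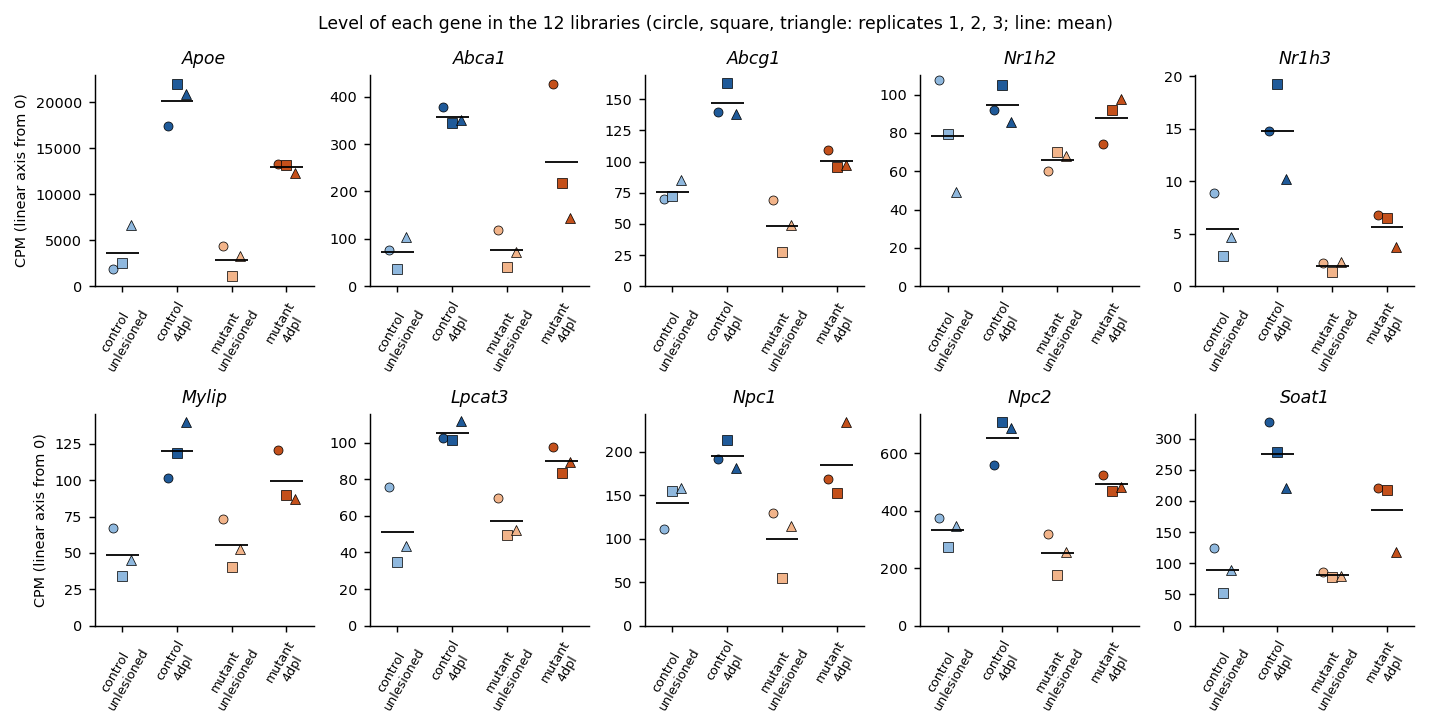
CPM of each of the 10 genes in the 12 libraries on linear axes from 0, by group, with circles, squares and triangles for replicates 1, 2 and 3 and a line at the group mean; mutant means labelled mutant. For Apoe, Abca1, Abcg1, Mylip, Lpcat3 and Npc2 all 6 lesioned libraries sit above all 6 unlesioned ones, and Nr1h3 sits lower in both mutant groups than in the control group of the same condition.

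The first question was which of these genes change after lesion. In control mice 8 of the 10 rose, by log2 fold changes of 0.96 to 2.46, and Nr1h2 and Npc1 were not called. Genes were called at a p-value below 0.01 and a Benjamini-Hochberg adjusted p-value below 0.05 over all genes with edgeR's quasi-likelihood test, and in this comparison 5.12% of all genes tested were called higher. In mutants 0 of the 10 were called (0.0225% of all genes were called higher), although 9 had an unadjusted p below 0.05, as 33.8% of all genes did in either direction. Pooled over both genotypes, 9 of the 10 were called higher (14.2% of all genes), and only Nr1h2 was not. The median log2 fold change of the 10 was 1.17 in control, 1.01 in mutants and 1.04 pooled, and that of all genes was -0.36, -0.18 and -0.28. Library by library, the 4dpl values lay above the unlesioned ones without overlap for 9 of the 10 in control (16.5% of all genes) and for 10 of the 10 in mutants (18.8% of all genes). The pooled comparison uses the same libraries as the separate ones and is no independent repeat of them.

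Abca1 (chromosome 4, 53030787 to 53159895, GRCm38), the exporter of cholesterol and phospholipid to apolipoproteins that carry little lipid, had 75.5, 37.2 and 104.7 CPM in the control unlesioned libraries and 377, 344 and 349.6 CPM in the control 4dpl libraries. In mutants it had 119, 39.98 and 72.4 CPM unlesioned and 427, 219 and 143 CPM at 4dpl. Every lesioned library was above every unlesioned one, and the mutant 4dpl libraries were spread widely where the control ones lay close together. The mean rose 4.93-fold in control, with a log2 fold change of 2.30 (SE 0.47, edgeR adjusted p = 0.0256), and it was 3.40-fold higher in mutants, where the log2 fold change of 1.77 was not called (SE 0.46, edgeR adjusted p = 0.0552).

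Abcg1 (chromosome 17, 31057698 to 31115777), which loads sterol onto lipoprotein particles that are already formed, had 70.02, 72.2 and 85.1 CPM in control unlesioned and 140.1, 162.9 and 138 CPM in control 4dpl libraries. The mutant libraries had 69.04, 27.6 and 49.4 CPM unlesioned and 109.6, 95.4 and 96.8 CPM at 4dpl. Lesioned and unlesioned libraries did not overlap in either genotype, and mutant libraries were lower than control ones in each condition. The log2 fold change after lesion was 0.96 in control (SE 0.28, edgeR adjusted p = 0.0453, called) and 1.05 in mutants (SE 0.28, edgeR adjusted p = 0.0557, not called). Per length, the ratio of Abca1 to Abcg1 was 0.370 ± 0.148 in control unlesioned and 0.960 ± 0.117 in control 4dpl libraries (SD, n = 3), without overlap. It was 0.607 ± 0.0621 in mutant unlesioned and 1.003 ± 0.482 in mutant 4dpl libraries, where replicate 3, at 0.581, fell within the unlesioned range.

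Apoe (chromosome 7, 19696109 to 19699188), the lipoprotein that accepts the exported sterol, had 1836, 2499 and 6656 CPM in control unlesioned and 17448, 21997 and 20922.5 CPM in control 4dpl libraries. Mutants had 4352, 1117 and 3276 CPM unlesioned and 13338.5, 13178.5 and 12315 CPM at 4dpl. The unlesioned libraries were uneven and the lesioned ones much less so, and no lesioned library came near the unlesioned range. The mean rose 5.49-fold in control (log2 fold change 2.46, SE 0.56, edgeR adjusted p = 0.0297). It was 4.44-fold higher in mutants (log2 fold change 2.15, SE 0.55, edgeR adjusted p = 0.0549, not called).

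Of the LXR receptor genes, Nr1h3 rose in control and Nr1h2 was not called. Nr1h2 (chromosome 7, 44549616 to 44553951) had 107.5, 79.3 and 49.1 CPM in control unlesioned and 92.1, 105.2 and 85.9 CPM in control 4dpl libraries, which overlapped. In mutants it had 59.9, 69.999 and 68.2 CPM unlesioned and 74.5, 91.8 and 97.7 CPM at 4dpl. It was not called in any lesion comparison, and its pooled log2 fold change was 0.34 (SE 0.18, edgeR adjusted p = 0.144). Nr1h3 (chromosome 2, 91184061 to 91202834) had 8.85, 2.87 and 4.71 CPM in control unlesioned and 14.8, 19.3 and 10.2 CPM in control 4dpl libraries. The mutant libraries had 2.17, 1.33 and 2.31 CPM unlesioned and 6.75, 6.47 and 3.72 CPM at 4dpl. Lesioned and unlesioned libraries did not overlap in either genotype, but the mutant lesioned libraries lay within the range of the control unlesioned ones. The log2 fold change was 1.43 in control (SE 0.41, edgeR adjusted p = 0.0453) and 1.54 in mutants (SE 0.42, edgeR adjusted p = 0.0576, not called). Counts behind these values were 71 to 1111 per library, the smallest of the 10 genes.

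**Figure D2:**
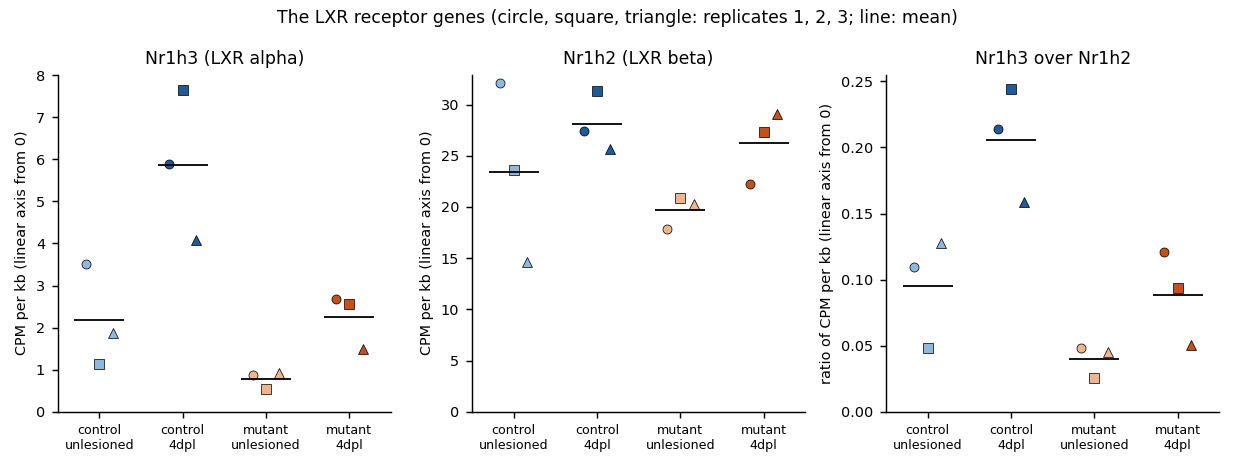
Nr1h3 and Nr1h2 in CPM per kb and their ratio, all on linear axes from 0, by group, with circles, squares and triangles for replicates 1, 2 and 3 and a line at the mean. The ratio was 0.0953 ± 0.0417 in control unlesioned, 0.206 ± 0.0432 in control 4dpl, 0.0396 ± 0.0125 in mutant unlesioned and 0.0886 ± 0.0354 in mutant 4dpl libraries (SD, n = 3).

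In CPM per kb, Nr1h3 thus stood at a small part of Nr1h2 in every library, from 0.0254 of it in mutant unlesioned replicate 2 to 0.244 of it in control 4dpl replicate 2. The ratio separated lesioned from unlesioned libraries in each genotype. It also separated the genotypes at 4dpl, where the highest mutant ratio was 0.121 and the lowest control ratio 0.159, but not in unlesioned tissue, where mutant replicate 1 was at 0.0484 and control replicate 2 at 0.0482.

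Mylip and Lpcat3 are LXR targets outside efflux. Mylip encodes the ubiquitin ligase IDOL, which sends the LDL receptor to degradation. The gene (chromosome 13, 45389742 to 45412022) had 67.2, 34.1 and 45.1 CPM in control unlesioned and 101.8, 118.5 and 140.3 CPM in control 4dpl libraries. Mutants had 73.6, 40.1 and 52.5 CPM unlesioned and 120.8, 90.1 and 87.1 CPM at 4dpl. It rose in control by a log2 fold change of 1.30 (SE 0.29, edgeR adjusted p = 0.0290), and in mutants the value was 0.84 (SE 0.29, edgeR adjusted p = 0.0808, not called). Lpcat3 encodes an acyltransferase that turns lysophosphatidylcholine into phosphatidylcholine with polyunsaturated chains, the kind of lipid that was injected here being its substrate. The gene (chromosome 6, 124663027 to 124704418) had 75.7, 34.6 and 43.5 CPM in control unlesioned and 102.5, 101.7 and 111.9 CPM in control 4dpl libraries. In mutants the gene had 69.9, 49.6 and 52.05 CPM unlesioned and 97.7, 83.5 and 89.5 CPM at 4dpl. Its log2 fold change was 1.04 in control (SE 0.27, edgeR adjusted p = 0.0372, called) and 0.66 in mutants (SE 0.27, edgeR adjusted p = 0.113, not called). Lpcat3 shares its end with Emg1 on the opposite strand, and whether counting used strand is not stated in the sources used here.

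Of the genes that move and store sterol inside the cell, Soat1 (chromosome 1, 156424525 to 156474331), which esterifies cholesterol for lipid droplets, had the largest estimate. It had 124.5, 51.8 and 89.6 CPM in control unlesioned and 326, 278 and 221 CPM in control 4dpl libraries. In mutants it had 86.1, 78.1 and 79.2 CPM unlesioned and 221, 217 and 118 CPM at 4dpl. Mutant 4dpl replicate 3 was thus within the range of the control unlesioned libraries, and the other lesioned libraries were above it. The log2 fold change was 1.63 in control (SE 0.33, edgeR adjusted p = 0.0256, called) and 1.19 in mutants (SE 0.32, edgeR adjusted p = 0.0572, not called).

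Npc2 (chromosome 12, 84754562 to 84773152), the soluble lysosomal protein that binds cholesterol, had 373.6, 274.5 and 346 CPM in control unlesioned and 559, 711 and 689 CPM in control 4dpl libraries. The mutant libraries had 321, 177 and 256 CPM unlesioned and 523, 468.5 and 484 CPM at 4dpl. Its log2 fold change was 0.98 in control (SE 0.26, edgeR adjusted p = 0.0398, called) and 0.97 in mutants (SE 0.26, edgeR adjusted p = 0.0573, not called). Its partner in the lysosomal membrane, Npc1, was not called in either genotype. It had 110.7, 154 and 158 CPM in control unlesioned and 191, 213 and 181 CPM in control 4dpl libraries. Mutants had 129, 54.3 and 114 CPM unlesioned and 168, 153 and 234 CPM at 4dpl. Although neither genotype overlapped, the log2 fold changes of 0.47 in control (SE 0.30, edgeR adjusted p = 0.279) and 0.90 in mutants (SE 0.30, edgeR adjusted p = 0.0790) were not called. Pooled, Npc1 reached 0.68 (SE 0.21, edgeR adjusted p = 0.0233, called), the smallest of the 9 called estimates. That call was lost without control unlesioned replicate 1, any 1 of the 3 control 4dpl libraries or mutant 4dpl replicate 3, where the log2 fold change was 0.60 to 0.72. Npc1 overlaps Rmc1 and Gm15956 on the opposite strand, and Soat1 overlaps Gm37648.

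**Figure D3:**
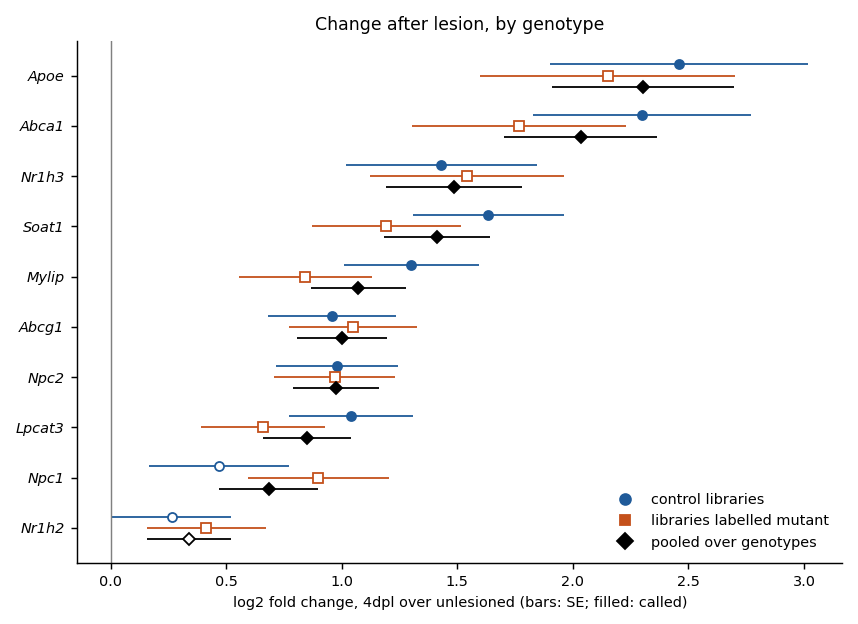
Log2 fold change of 4dpl over unlesioned for the 10 genes in control libraries (circles), libraries labelled mutant (squares) and pooled over genotypes (diamonds), with bars of 1 SE and filled symbols where the gene was called. All 30 estimates are above 0, from 0.26 for Nr1h2 in control to 2.46 for Apoe in control, and the bars of both genotypes overlap for all 10 genes.

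The calls in 1 genotype alone depended on single libraries, and the pooled ones much less. Without control unlesioned replicate 2, control 4dpl replicate 1 or control 4dpl replicate 2, 0 of the 10 genes were called in control, where 0.003%, 0.00883% and 0.00589% of all genes were called higher. Without control unlesioned replicate 3 only 1 was (0.249% of all genes). Between 4 and 5 were called without control 4dpl replicate 3, mutant unlesioned replicate 3, or mutant 4dpl replicate 1 or 2, the mutant libraries entering through the shared estimate of the spread, and in these fits 1.54% to 3.13% of all genes were called higher. The 0 genes called in mutants became 9 without control unlesioned replicate 1, where 7.72% of all genes were called higher, and 6 without mutant unlesioned replicate 1, where 6.36% were. DESeq2, the tool the study used, called 6 in mutants on all 12 libraries (Apoe, Abca1, Abcg1, Nr1h3, Npc2 and Soat1), where it called 4.28% of all genes higher, and limma with voom and sample weights called 9 and 11.2% of all genes higher. The pooled count stayed at 8 or 9 whichever library was left out, with 10.2% to 17.7% of all genes called higher.

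Whether the lesion response differed between the genotypes was tested by the interaction. The 10 estimates ran from -0.53 for Abca1 to 0.43 for Npc1 on the log2 scale, with SEs of 0.36 to 0.75, and 6 of the 10 were below 0. None of the 10 was called by edgeR, DESeq2 or limma voom, and 0% of all genes were called by edgeR. The smallest unadjusted p of the 10 was 0.278, for Mylip, so 0 were below 0.05 (3.81% of all genes), and every edgeR adjusted p was 0.9999. The 8 calls in control against the 0 in mutants are therefore no evidence of a different response of these genes, and with these SEs differences of the size of the estimates could not be detected.

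**Figure D4:**
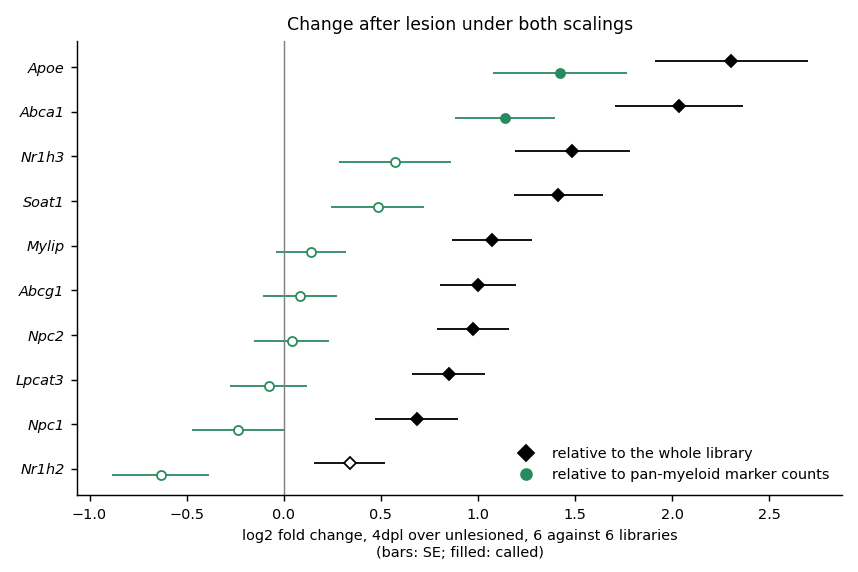
Log2 fold change after lesion pooled over genotypes (6 against 6 libraries), relative to the whole library (diamonds) and to the summed counts of 9 pan-myeloid markers (circles), with bars of 1 SE and filled symbols where called. Apoe (2.30 and 1.42) and Abca1 (2.03 and 1.14) are called on both scales, while Mylip, Abcg1, Npc2 and Lpcat3 sit close to 0 on the myeloid scale.

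Because myeloid markers rose with the lesion as well, each gene was also measured against them. With the pan-myeloid marker counts as library size, 2 of the 10 were called higher in the pooled comparison (0.331% of all genes tested), and these were Apoe and Abca1. Apoe was at 206, 390.5 and 749 counts per 1000 pan-myeloid marker counts in control unlesioned and at 1265, 1198 and 1081 in control 4dpl libraries. In mutants it was at 418, 185 and 422.5 unlesioned and 824, 980.2 and 992 at 4dpl. Abca1 was at 8.47, 5.82 and 11.8 counts per 1000 in control unlesioned and 27.3, 18.8 and 18.1 in control 4dpl libraries. In mutants it was at 11.5, 6.61 and 9.34 unlesioned and 26.4, 16.3 and 11.5 at 4dpl. Both genes thus rose by more than the myeloid marker sum did, Apoe without overlap in either genotype and Abca1 with mutant 4dpl replicate 3 next to the unlesioned range.

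On that scale the pooled log2 fold change was 1.42 for Apoe (SE 0.34, edgeR adjusted p = 0.00281) and 1.14 for Abca1 (SE 0.26, edgeR adjusted p = 0.00190). In control 1 of the 10 was called higher, Abca1 (0.209% of all genes), and in mutants 1, Apoe (0.148% of all genes). Nr1h3 and Soat1 lay between, at 0.57 and 0.48, and were not called (SE 0.29 and 0.24, edgeR adjusted p = 0.0869 and 0.0811). Mylip, at 0.14, Abcg1, at 0.08, Npc2, at 0.04, and Lpcat3, at -0.08, were within 1 SE of 0, and Npc1 and Nr1h2 were at -0.24 and -0.63, opposite in sign to the scale of the whole library. The same scaling moved the median of all genes from -0.28 to -1.25. Values near 0 therefore mark genes that kept step with the sum of these markers, and not genes that stayed level in the library. The part of the myeloid cells in each change was not tested.

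Libraries also differed within a group. Mutant unlesioned replicate 2 had the lowest level of its group for 9 of the 10 genes, all but Nr1h2, and control unlesioned replicate 2 for 6 of the 10. In the same libraries the neutrophil markers summed to 75175 CPM, against 18460 and 46203 CPM in the other mutant unlesioned libraries, and to 70500.1 CPM, against 56743 and 32733 CPM in the other control unlesioned ones. Both also had the lowest pan-myeloid sum of their group. Mutant 4dpl replicate 3, the library with the highest oligodendrocyte sum, was the lowest of its group for 5 genes and the highest for Npc1 and Nr1h2. Their part in the results was not tested. Leaving out that library together with control unlesioned replicate 1, chosen after the data were seen, left 8 of the 10 genes called in the pooled lesion comparison, and Npc1 was lost. In that fit 17% of all genes were called higher.

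The second question was whether the genotypes differ in the same condition. By edgeR 0 of the 10 genes were called in unlesioned tissue (0% of all genes) and 0 at 4dpl (0% of all genes). DESeq2 and limma voom called 0 of the 10 in both as well. At an unadjusted p below 0.05 stood Nr1h3 and Abcg1 in unlesioned tissue (5.22% of all genes) and Nr1h3 at 4dpl (6.92% of all genes). Nr1h3 was lower in mutants by a log2 fold change of -1.50 in unlesioned tissue (SE 0.42, edgeR adjusted p = 0.693) and of -1.39 at 4dpl (SE 0.41, edgeR adjusted p = 0.375). Its means in mutants were 0.354 of control unlesioned and 0.382 of control at 4dpl, and no mutant library reached the lowest control library of its condition. Abcg1 was at -0.64 unlesioned (SE 0.28, edgeR adjusted p = 0.927) and -0.55 at 4dpl (SE 0.27, edgeR adjusted p = 0.758).

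Counted by library alone, 2 of the 10 genes, Nr1h3 and Abcg1, were lower in mutants without overlap in unlesioned tissue (6.28% of all genes). At 4dpl 6 of the 10 were, namely Apoe, Abcg1, Nr1h3, Lpcat3, Npc2 and Soat1 (5.44% of all genes), Soat1 by a margin of 221.258 against 221.344 CPM. For Apoe the highest mutant library was at 13338.5 and the lowest control library at 17448 CPM, and the mean was 0.643 of control. None of the 6 passed the test across all genes. Their log2 fold changes were -0.64 for Apoe (SE 0.53, edgeR adjusted p = 0.910), -0.57 for Soat1 (SE 0.32, edgeR adjusted p = 0.817), -0.41 for Npc2 (SE 0.26, edgeR adjusted p = 0.855) and -0.22 for Lpcat3 (SE 0.27, edgeR adjusted p = 0.959). At 4dpl the pan-myeloid sum was 17170 CPM on average in control and 14018 CPM in mutants. Of the 10 log2 fold changes at 4dpl none was above 0 relative to the whole library. Scaled to that sum 4 were, Npc1 at 0.22, Nr1h2 at 0.20, Lpcat3 at 0.05 and Mylip at 0.0063, and Apoe was at -0.34. The genotype comparisons use the same libraries as the lesion comparisons.

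Averaged over both conditions, a comparison added after the levels of Nr1h3 had been seen, Nr1h3 was lower in mutants by a log2 fold change of -1.44 (SE 0.29), and it ranked 16 by p among the 31109 genes. It was not called by edgeR (adjusted p = 0.294), which called 0 of the 10 and 0% of all genes there. At an unadjusted p below 0.05 stood 3 of the 10, Nr1h3, Abcg1 and Npc2, as did 9.42% of all genes in either direction. DESeq2 called Nr1h3 alone of the 10 (adjusted p = 0.00165), where it called 0.797% of all genes lower, and limma voom called 0 of the 10. Leaving out 1 library at a time kept the value between -1.60 and -1.18, and scaling to the pan-myeloid markers gave -1.29. Nr1h3 shares bases with Gm13783 on the same strand, a gene with at most 44 counts in any library.

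The other genes of the pathway were read from lists by role. Among 12 further LXR target genes tested, 7 were called higher in the pooled lesion comparison, in which 14.2% of all genes were, and 0 lower, with a median of 0.92. Cd5l, a protein secreted by macrophages, had the smallest p, with 0.431 to 5.26 CPM unlesioned and 9.39 to 30.2 CPM at 4dpl (log2 fold change 3.01, SE 0.47, edgeR adjusted p = 0.00248). Apoc1, an apolipoprotein from the same gene cluster as Apoe, followed at 2.29 (SE 0.41, edgeR adjusted p = 0.00321). In control 6 of the 12 were called higher (5.12% of all genes), and in mutants 0 (0.0225% of all genes). In mutants 10 of the 12 had p below 0.05, as 33.8% of all genes did in either direction. Of 8 LXR partners and coregulators only Rxra, the retinoid X receptor that pairs with LXR, was called, near the share of all genes, from 10.8 to 16.6 CPM unlesioned to 20.3 to 30.4 CPM at 4dpl (log2 fold change 0.90, SE 0.15, edgeR adjusted p = 0.00267). Its paralogue Rxrg was at 0.74 (SE 0.31, edgeR adjusted p = 0.0691, not called).

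Upstream of the 10 genes, 3 of 6 lipoprotein receptors were called higher, beside the same 14.2% of all genes, with Lrp1, a receptor for ApoE and for myelin debris, at 1.54 (SE 0.28) and the scavenger receptor Cd36 at 2.01 (SE 0.42). Of 11 genes of intracellular sterol handling 5 were called higher. Among them were Lipa, the lysosomal acid lipase that frees cholesterol from its esters, at 2.16 (SE 0.25), and Nceh1, which hydrolyses cholesteryl esters outside the lysosome, at 1.37 (SE 0.18). Soat1, their counterpart in esterification, had changed by 1.41 (SE 0.23) in the same pooled comparison. Of 5 oxysterol enzymes 1 was called higher, close to the share of all genes, namely Ch25h, which makes the LXR ligand 25-hydroxycholesterol, at 2.33 (SE 0.46), and Cyp27a1 was at 0.46 (SE 0.25, edgeR adjusted p = 0.136, not called).

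Of 15 genes of sterol synthesis and its control 2 were called higher, near the 14.2% of all genes. They were Dhcr7, the last step to cholesterol, at 0.82 (SE 0.27) and Scap, the sterol sensor of SREBP, at 0.57 (SE 0.18). All 15 estimates were above 0, with a median of 0.56. In control 13 of the 15 were above 0, and 0 had an unadjusted p below 0.05 (34% of all genes). In mutants all 15 were above 0, and 8 had p below 0.05 (33.8% of all genes). In the mutant 4dpl libraries Dhcr7 was at 58.3, 55.7 and 138 CPM and Scap at 66.7, 60.3 and 100 CPM, highest in replicate 3. Of 10 other sterol and lipid carriers 2 were called higher, again near the 14.2% of all genes. They were Lcat, which esterifies cholesterol on lipoproteins, at 1.197 (SE 0.34) and Abca8a at 0.91 (SE 0.30). In control Lcat was at 0.53 (SE 0.48) and Abca8a at 0.54 (SE 0.42), neither called. In the mutant 4dpl libraries Lcat was at 4.14, 5.58 and 11.9 CPM and Abca8a at 16.7, 18.9 and 21.3 CPM, again highest in replicate 3. The part of that library in these estimates was not tested. Of 6 lysophospholipid acyltransferases other than Lpcat3 only Lpcat1 was called, at 0.47 (SE 0.15), and Lpcat2 was at 0.56 (SE 0.19, edgeR adjusted p = 0.0344, not called because its p was above 0.01). No gene of these 8 lists was called lower in the pooled comparison, in which 18.6% of all genes were. In mutants alone 0 genes of the 8 lists were called.

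**Figure D5:**
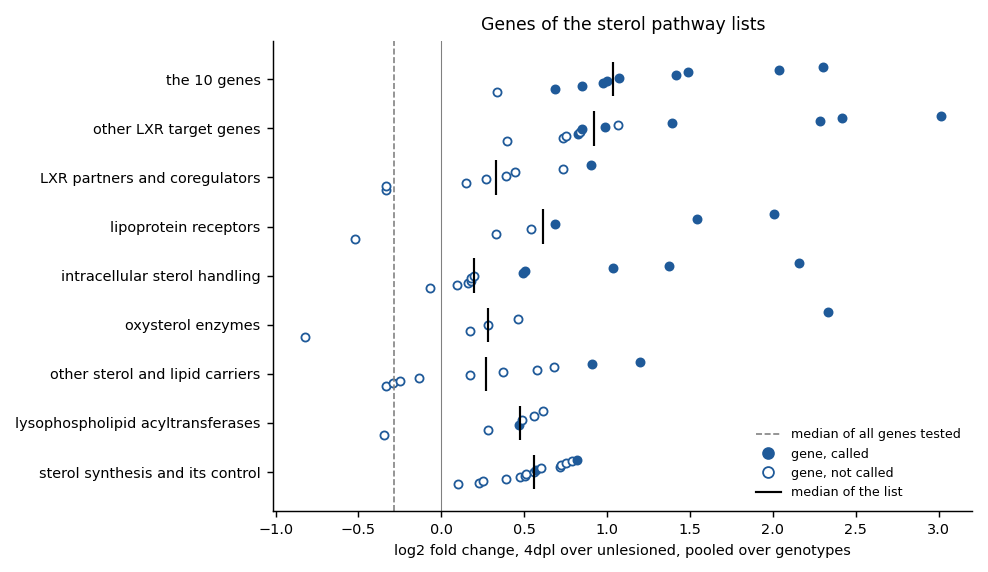
Log2 fold change after lesion pooled over genotypes for each tested gene of the 10 and of the 8 pathway lists, filled where called, with a bar at the median of each list and a dashed line at the median of all genes tested (-0.28). The medians are 1.04 for the 10 genes, 0.92 for other LXR targets, 0.56 for sterol synthesis and 0.19 for intracellular sterol handling, whose called genes stand apart from the rest of their list.

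Genes with the most similar pattern over the 12 libraries were found by the root mean square difference of log2 CPM, each gene centred on its own mean, among 13616 genes. For Apoe they were Ctsd (0.337), Pld3, Fabp3, Syngr1 and Ctsb, where Ctsd and Ctsb are lysosomal cathepsins. For Abca1 they were C3ar1 (0.212), Abcc3, Cd68, Ctsb and Adgre1, of which Cd68 and Adgre1 are markers of macrophages. For Abcg1 they included Sumf2 (0.131), Dusp3, Smyd5 and Mydgf. The spread of the 3 genes about their own means was 1.41, 1.201 and 0.680 on the same scale, so that a smaller difference is easier to reach for Abcg1. These likenesses are descriptions over libraries that share their groups, and no test was made of them.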

How the data were processed

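RNA-seq gene counts from 12 spinal cord libraries were used. The authors aligned reads with BWA, counted them per exon and gene by featureCounts against Ensembl models (GRCm38), and deposited one raw count per gene without normalization. The submitters' processing notes name STAR, DESeq2 1.2.5 and mm10 instead. Total counts were 34805086 to 67251544, so that for these genes counting error is small against the spread between libraries.

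The main test was edgeR 4.0.16 under R 4.3.3 (filterByExpr, TMM, glmQLFit and glmQLFTest with 1 mean per group over all 12 libraries) and adjusted over 31109 genes. Calls needed p below 0.01 and adjusted p below 0.05. CPM per kb used the Length column deposited with the counts. DESeq2 1.42.0, limma 3.58.1 with voom, other filters and size factors, replicate blocks, scaling to pan-myeloid markers and leaving out each library were alternatives. The average genotype comparison, the paired omission of 2 libraries and the search with 3 mismatches were added after the data were seen. Scripts were tested on simulated counts.

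The 10 genes and all lists were chosen with earlier results of these data known. All 10 were named in every comparison, and of each pathway list the 2 genes with the smallest p in the pooled lesion comparison. For Apoe, Abca1 and Abcg1 the 5 genes with the most similar pattern were named, among genes with a mean log2 CPM of at least 1, of which 1 for Abcg1 is not reported here. The study's methods speak of 3 biological replicates per condition for spinal cord tissue, and the labels do not tie libraries to animals. Promoter windows are from RefSeq and were matched by symbol for 8 of the 10 genes (not Abcg1 and Npc1). Whether the label numbers or those of the study's table pair the libraries was not settled by the correlation of their deviations.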

Additional observations from a re-analysis of the deposited data

How the results depend on the processing

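Called genes among the 10 stayed at 8 or 9 in the pooled lesion comparison under every alternative fitted to it but the scaling to pan-myeloid marker counts, which gave 2. The fit on the compared groups only was not made for the pooled comparison. Size factors from DESeq2 moved the median of all genes in that comparison from -0.28 to -0.38. In control the main 8 became 5 with edgeR on the compared groups only, 5 with at least 10 counts in every library, 5 with a replicate block by the study's numbers and 1 with the myeloid scaling (2.39%, 3.87%, 2.45% and 0.209% of all genes called higher, against 5.12%), and ranged from 0 to 8 with 1 library left out. In mutants the main 0 became 6 with DESeq2, 9 with limma voom, 6 with edgeR's newer quasi-likelihood option and 4 without a filter. It became 8 at an adjusted p below 0.10 with no limit on p and 1 with the myeloid scaling. It ranged from 0 to 9 with 1 library left out. Of the 8, Mylip and Npc1 had an edgeR p above 0.01 (0.0112 and 0.0105). In the same order 4.28%, 11.2%, 4.42%, 0.621%, 9.55% and 0.148% of all genes were called higher there, against 0.0225%, so calls grew over all genes too. The cause was not tested. The average genotype comparison called 1 gene, Nr1h3, with DESeq2 and 1, Nr1h3, without a filter (edgeR adjusted p = 0.0432). Its adjusted p was between 0.00165 and 0.722 over all alternatives.

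Deviations of same-numbered libraries correlated at 0.189, 0.052 and 0.189 in control and at -0.03, 0.073 and -0.07 in mutants. No pairs with different numbers are given for contrast, so these values do not decide whether the label numbers pair the libraries. With a replicate block by label number 8, 0 and 9 genes were called in the control, mutant and pooled lesion comparisons, and 0 by the interaction. In these lesion comparisons 7.51%, 0.0129% and 15.6% of all genes were called higher. With the numbers of the study's table, of which 2 are shared in each genotype, the block gave 5, 0, 8 and 0. Its shares of all genes called higher after lesion were 2.45%, 0% and 9.06%.

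Of the lesion values of the 10 genes, the myeloid scaling alone turned any. In control Abcg1 was at -0.13, Lpcat3 at -0.0037, Npc1 at -0.64, Npc2 at -0.11 and Nr1h2 at -0.83. In mutants Lpcat3 was at -0.15 and Nr1h2 at -0.44, and pooled Lpcat3 was at -0.0785, Npc1 at -0.24 and Nr1h2 at -0.63. Between genotypes at 4dpl it put Lpcat3 at 0.0528, Nr1h2 at 0.20, Npc1 at 0.22 and Mylip at 0.0063, and in the average genotype comparison Mylip at 0.098 and Lpcat3 at 0.13. Other alternatives turned uncalled genotype values as well: of the 10, 3 were above 0 in unlesioned tissue and 0 to 5 over the alternatives, 0 at 4dpl and 0 to 4, and 0 on average and 0 to 2. Values of Nr1h3 and Abcg1 stayed below 0 in each of these. Interaction estimates, given as a range, were not followed through the alternatives beyond their count of calls.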
